A study of Sus scrofa with 12 samples.

Results

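The effect of cyclin B2 (CCNB2) knockdown was examined in porcine (Sus scrofa) embryos by comparing the 3 SMART-seq libraries titled si-4c with the 3 titled con-4c, which are 6 of the 12 libraries of the series. The libraries were taken by title alone, and the genes that differed between them are described here by abundance and by function. SMART-seq turns the polyadenylated RNA of small samples into full-length cDNA, which is then amplified by PCR. Each library was a pool of embryos made by in vitro fertilisation of oocytes from postpubertal gilts of the Long White breed. The si-4c embryos received an injection of si-CCNB2, a small interfering RNA against the CCNB2 mRNA, and carry the treatment label si-CCNB2. The con-4c embryos carry the treatment label blank control, while the methods of the study call them normal and also the NC group, so whether they were injected was not clear, and a difference can include the injection itself. No genetic modification was named for either group.

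Cyclin B2 is a partner of the kinase CDK1, and the complex drives cells into mitosis. An early embryo starts out on mRNAs that the oocyte stored, destroys many of them during the first cleavages, and switches on its own genes in a process called zygotic genome activation, which in the pig is placed around the 4-cell stage. Knockdown with a small interfering RNA works through the guide strand. The guide pairs with the target mRNA along its length, starting at its seed bases, and the mRNA is cut.

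The sense strands that the study lists for CCNB2 are shown because they are the agent that separates the groups. Capitals mark bases 12 to 18, which face bases 2 to 8 of the guide, its seed.
Listed first, Si-CCNB2-1: gcagguccacuCCAAGUUu
Listed next, Si-CCNB2-2: gcuuauaccagUUCCCAAa
The first holds 10 G or C among its 19 bases and the second holds 8. The first 11 bases of Si-CCNB2-2 are, read as DNA, the last 11 bases of the forward primer that the study used to measure CCNB2, atcacagacaacGCTTATACCAG, where capitals mark the shared bases. The sources used here do not say which of the listed siRNAs was injected for these libraries.

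The stage of these embryos is uncertain in the labels. All libraries with 4c in the title carry a tissue label of 2-cell embryos, and all with 2c in the title a label of 4-cell embryos, so con-4c and si-4c stand here for titles only. Whether titles were also exchanged within the control or the si-CCNB2 libraries alone could not be settled from the files, and in that case treatment and stage cannot be told apart between con-4c and si-4c. Many of the genes described here moved the other way between con-2c and si-2c, with values given after the results on con-4c and si-4c. Library totals were 27785233 to 28771777 counts in con-4c and 36612707 to 38281817 in si-4c. In spite of the lower totals, 21476 ± 257 genes (mean ± SD, n = 3) had a count in con-4c against 18148 ± 75.7 in si-4c. Whether replicate libraries came from separate fertilisations is not stated, so the p-values measure the spread between these libraries, which may be technical. In pooled embryos, fewer cells that use a gene and less RNA per cell cannot be told apart. Of the 43 oocyte genes listed as markers of these embryos, all were tested and 33 averaged at least 10 CPM (counts scaled to a common library total, with no correction for gene length), so transcripts that define oocytes and early embryos were present in both groups.

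Markers of cells that could travel with the embryos were mostly low. The 26 markers of cumulus and granulosa cells, which surround the oocyte, summed to 206 to 215 CPM in the con-4c libraries and 319 to 330 CPM in the si-4c libraries, most of it from VCAN, at 177 CPM in con-4c and 295 CPM in si-4c. Next were FST, at 7.73 CPM in con-4c and 7.38 CPM in si-4c, and GREM1, at 7.47 and 10.5 CPM, neither of them called. LHCGR, SPARC and INHBB were at 0 in all 6 libraries. The 4 cumulus markers called lower (VIM, COL3A1, TNFAIP6 and COL1A1), which are 25% of the 16 tested, averaged at most 2.71 CPM in con-4c. The 25 sperm markers summed to 82.3 to 85.7 CPM in con-4c and 93.1 to 104 CPM in si-4c, with ACR, CATSPER4 and ADAM2 at 0 throughout. The largest were LDHC, at 38.5 CPM in con-4c and 53.1 CPM in si-4c, ZPBP2, at 13.4 and 17.1 CPM, and ODF2, at 11.4 and 10.3 CPM. LDHC, ZPBP2 and ODF2 were not called. The 4 sperm markers called lower (HSPA1L, AKAP3, CATSPER1 and AKAP4), which are 33.3% of the 12 tested, averaged at most 5.52 CPM in con-4c. Of all genes tested, 15.8% were called lower, and of those with a symbol, as all these markers have, 12.6%. The part of such cells in the differences described next was not tested. These markers are named for being at 0, called or among the most abundant of their list, after their values were seen.

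The knockdown was checked at its target. CCNB2 (ENSSSCG00000004588, Sscrofa11.1 chr1:112907047-112942218 in RefSeq) had 510, 485 and 429 CPM in the con-4c libraries and 40.7, 46.8 and 40.3 CPM in the si-4c libraries. All si-4c libraries lay far below all con-4c libraries, and 8.98% of the control level was left. The log2 fold change, si-4c minus con-4c, was -3.48 (SE 0.14, edgeR quasi-likelihood test with Benjamini-Hochberg adjustment over all genes tested, adjusted p 5.14e-12). In the libraries titled 2c, 4.89% of the control level was left. Values in log2 units below are such fitted changes, positive where si-4c was higher.

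Across the 17995 genes tested, many more genes were lower than higher in si-4c. With the thresholds of the study, an adjusted p under 0.05 and a change of 1 or more on the log2 scale, 2852 genes were called lower (15.8% of genes tested) and 562 were called higher (3.12%). The libraries of the groups did not overlap for 2710 of the genes called lower and 546 of those called higher. Of all genes tested, 50.9% did not overlap, 29.8% with si-4c lower and 21.2% with si-4c higher. Of the calls, 16.5% were higher under TMM scaling, which assumes that most genes keep their level. Scaled by library totals alone, 3372 genes were called lower and 231 higher, so that 6.41% of the calls were higher, and the median log2 fold change of all genes moved from -0.11 to -0.37. Directions of the smaller increases below therefore hold relative to the bulk of genes, and no scaling called a gene in the opposite direction.

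The genes that fell and the genes that rose differed in size of change. Of the genes called lower, 651 fell by 1 to 2 on the log2 scale, 431 by 2 to 3, 1264 by 3 to 5 and 506 by 5 or more, counting genes with no read in si-4c at the least fall their counts allow. Of the genes called higher, 510 rose by 1 to 2, 21 by 2 to 3, 30 by 3 to 5 and 1 by more. The median log2 fold change was -3.55 among genes called lower and 1.24 among genes called higher. Among the 615 genes called lower that had at least 10 CPM in con-4c, 94 kept less than 1% of the con-4c level, 131 kept 1 to 10%, 140 kept 10 to 25% and 250 kept more. Among the 335 genes called higher that had at least 10 CPM in si-4c, 34 were at least 3-fold higher, 3 were at least 4-fold higher, and the ratio of means reached 4.50.

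**Figure D1:**
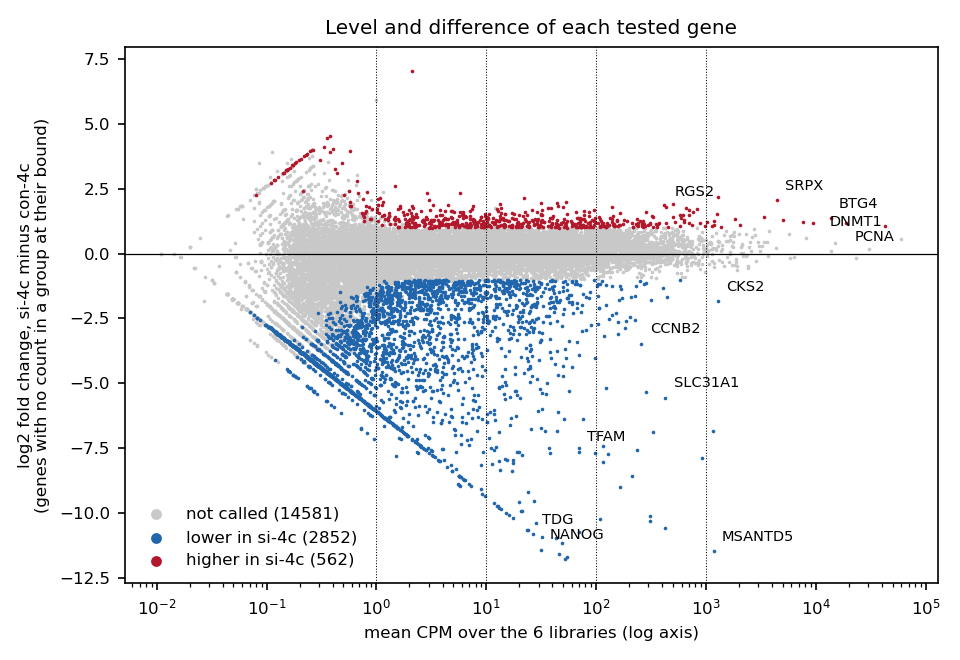
Each point is a gene tested. The x axis is the mean CPM over the 6 libraries (log axis, dotted lines at the class borders 1, 10, 100 and 1000) and the y axis the log2 fold change, si-4c minus con-4c, with genes that had no count in a group drawn at their bound. The 2852 genes called lower (blue) spread down to beyond -10, while most of the 562 called higher (red) form a narrow band just above 1 at every level from 1 CPM up.

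The direction of the calls differed between abundance classes. Genes were sorted into classes by their mean CPM over the 6 libraries, an order of counts that also reflects transcript length. Below 1 CPM, 20.4% of 6412 genes were called lower and 0.873% higher. Between 1 and 10 CPM, 19.9% of 5454 genes were called lower and 3.81% higher. Between 10 and 100 CPM the shares were 8.92% and 4.32% of 4517 genes. In the upper classes the order depended on scaling between 100 and 1000 CPM, but not above. Of 1496 genes between 100 and 1000 CPM, 51 (3.41%) were called lower and 86 (5.75%) higher, and of 116 genes at 1000 CPM and above, 3 (2.59%) were called lower and 17 (14.7%) higher. With library totals, 67 genes were lower and 28 higher between 100 and 1000 CPM, so that lower calls outnumbered higher ones there too, and 3 were lower and 7 higher above. Genes below 10 CPM made up 84.0% of the genes called lower and 47.0% of those called higher, against 65.9% of all genes tested. The median log2 fold change of all genes in a class climbed from -0.95 below 1 CPM to -0.07, 0.09, 0.14 and 0.28 in the successive classes. The mean that sets the class contains both groups, so a gene lost from si-4c is placed lower than its con-4c level alone would put it. The filter keeps genes with enough counts in any 3 libraries, so a gene of the lowest class can be tested through its con-4c level alone. Of the genes tested, 1051 had no count in si-4c and 71 had none in con-4c. The part of the filter in the values of the lowest class was not tested. By con-4c level, 894 of the genes called lower were below 1 CPM, 1343 at 1 to 10, 534 at 10 to 100, 77 at 100 to 1000 and 4 above. By si-4c level, 2099 of the same genes were below 1 CPM.

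**Figure D2:**
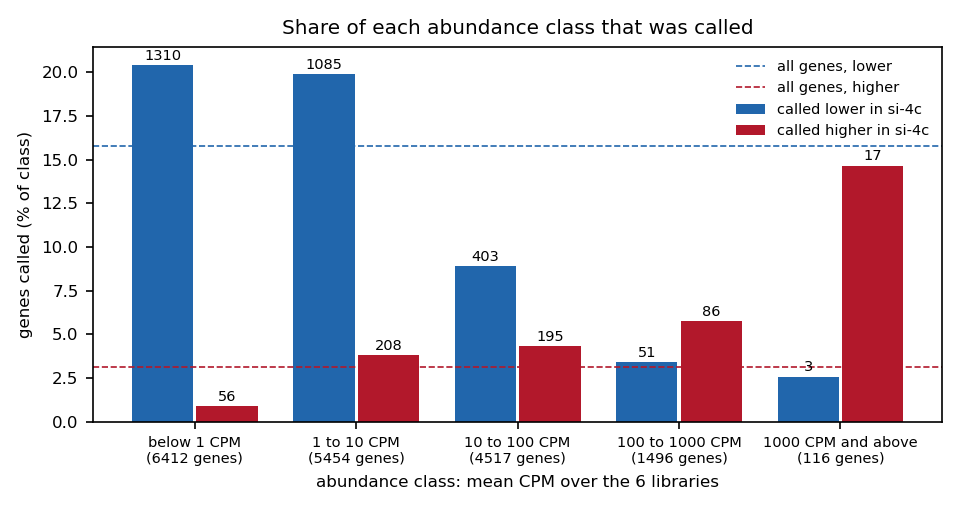
Bars give the percentage of genes in each abundance class (mean CPM over the 6 libraries) called lower (blue) or higher (red) in si-4c, with the number of genes on each bar, and dashed lines give the same share over all 17995 genes. Under TMM scaling, calls of lower genes drop from 20.4% in the lowest class to 2.59% in the highest, while calls of higher genes go from 0.873% to 14.7%.

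In percentage points, the genes called higher, though fewer, changed their share of the library by more than the genes called lower. Relative to its con-4c level, the share of the genes called lower changed by more. The genes called lower took 5.52, 5.54 and 5.55% of the counts in the con-4c libraries and 0.800, 0.780 and 0.802% in the si-4c libraries. The genes called higher took 9.75% ± 0.307 in con-4c (n = 3) and 19.6, 19.0 and 18.7% in the si-4c libraries. The groups did not overlap in either share. The genes not called took 84.6% ± 0.320 in con-4c and 80.1% ± 0.429 in si-4c (n = 3). The 10 genes called higher with the highest si-4c level accounted for 13.6% ± 0.400 of the si-4c counts (n = 3) and 7.04% ± 0.255 of the con-4c counts. The whole class at 1000 CPM and above went from 40.1% ± 0.488 of the counts in con-4c to 46.5% ± 0.881 in si-4c. These shares describe the genes called under TMM scaling and are not a separate test.

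**Figure D3:**
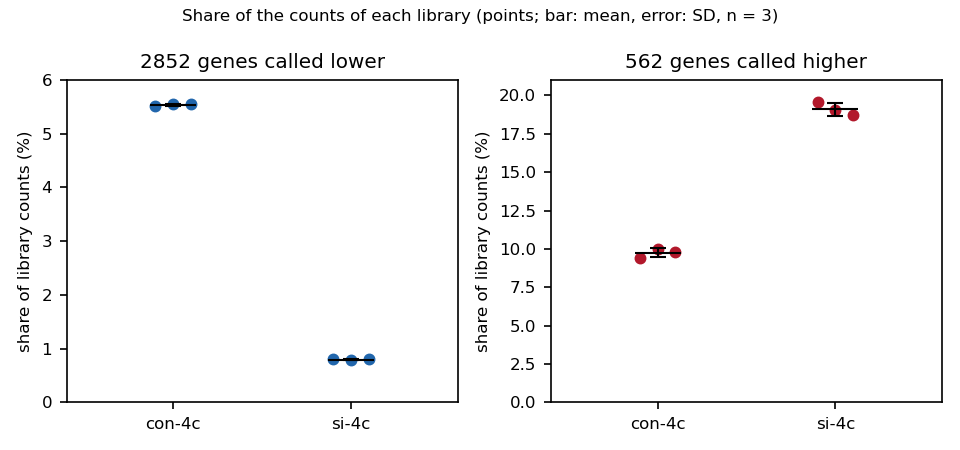
Points give, for each library, the percentage of its counts that fell on the 2852 genes called lower (left) and the 562 genes called higher (right), with the mean and SD of 3 libraries per group, on axes that start at 0. The share on the left drops from about 5.54% to 0.794%, and the share on the right goes from 9.75% to 19.1%.

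The most abundant genes included called and uncalled ones. Of the genes with a symbol that ranked among the 5 highest in either group, PCNA and BTG4 were called higher, with values given below among their lists, while DNMT1, OOSP3, FTL and UBB were not called. DNMT1, the maintenance DNA methyltransferase, had 46559, 48250 and 48920 CPM in con-4c and 71485, 69783 and 70909 CPM in si-4c. It was higher in every si-4c library, by 0.56 on the log2 scale (SE 0.09, edgeR adjusted p 0.000132), which is below the fold threshold. OOSP3, a secreted oocyte protein, had 24451 ± 1274 CPM in con-4c and 21959 ± 2541 CPM in si-4c (edgeR adjusted p 0.385, groups overlapping). FTL, the ferritin light chain, had 13311 ± 504 and 14228 ± 727 CPM (edgeR adjusted p 0.631), with the sign of its small difference turning under other scalings. UBB, a polyubiquitin gene, had 12733 ± 662 and 16997 ± 1270 CPM (0.42 log2 units, SE 0.14, edgeR adjusted p 0.0252). FTL and UBB have near-identical copies, and how reads matching several genes were counted is not stated, so both levels are uncertain.

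Only 3 genes of the highest class were called lower. MSANTD5 (ENSSSCG00000042891), named for a DNA-binding domain of the Myb/SANT type, had 2165, 2522 and 2360 CPM in con-4c and 0.900, 1.01 and 0.538 CPM in si-4c. It averaged under 1 CPM in si-4c, with the groups far apart (-11.48 log2 units, SE 0.22, edgeR adjusted p 6.88e-16). CKS2 (ENSSSCG00000021161, chr14:904762-910292), a small subunit that binds cyclin-dependent kinases, had 1943, 2074 and 2021 CPM in con-4c and 628, 503 and 547 CPM in si-4c (-1.85, SE 0.09, edgeR adjusted p 8.33e-11). The remaining gene, ENSSSCG00000028810, has no symbol in the table and is named because it completes the count. It had 2309 ± 69.2 CPM in con-4c and 19.9 ± 3.41 CPM in si-4c.

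In the class from 100 to 1000 CPM, the genes called lower with the smallest p were SLC31A1, TMSB10 and FAU. SLC31A1 (chr1:253868389-253893135), the copper importer of the plasma membrane, had 804, 869 and 828 CPM in con-4c and 18.3, 18.2 and 16.5 CPM in si-4c. Every si-4c library lay far below every con-4c library (-5.56 log2 units, SE 0.11, edgeR adjusted p 6.88e-16). TMSB10 (chr3:59776236-59777252), a thymosin that binds actin monomers, had 561 ± 21.9 CPM in con-4c and 14.0 ± 1.78 CPM in si-4c (-5.32, SE 0.15, edgeR adjusted p 5.52e-14). FAU (chr2:7070903-7072811), which encodes a ribosomal protein fused to a ubiquitin-like protein, had 254 ± 12.9 and 1.18 ± 0.0126 CPM (-7.74, SE 0.21, edgeR adjusted p 5.52e-14). The groups did not overlap for any of them, which was a condition of their choice.

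The next classes held genes that were close to absent from si-4c. TFAM (chr14:92261713-92279731), which packages mitochondrial DNA and starts its transcription, had 133, 144 and 139 CPM in con-4c and 0.900, 0.347 and 0.836 CPM in si-4c (-7.64 log2 units, SE 0.20, edgeR adjusted p 3.03e-14). TDG (chr5:80473233-80492295), a glycosylase that removes oxidised methylcytosine and mismatched thymine from DNA, had 53.5, 55.3 and 51.8 CPM in con-4c and no count in any si-4c library (edgeR adjusted p 5.64e-14). Taking the 3 counts that a group with no read still allows, TDG was at least 1809-fold lower in si-4c. In the class from 1 to 10 CPM, LGALS1, a galectin, had 16.8 ± 1.85 CPM in con-4c and 0.277 ± 0.149 CPM in si-4c (-5.91, SE 0.30, edgeR adjusted p 1.31e-10). SNAI1, a zinc finger repressor known from epithelial to mesenchymal transitions, had 14.9 ± 1.95 and 0.295 ± 0.102 CPM (-5.64, SE 0.31, edgeR adjusted p 3.28e-10).

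TDG was not alone in having no read. Of all 17995 genes tested, 1051 had no count at all in si-4c and 71 had none in con-4c. Among the genes called lower, 866 had none in si-4c, 756 of them averaging below 1 CPM over the 6 libraries. Of the 866, 224 had at least 1 CPM and 26 at least 10 CPM in con-4c, and 314 carried a symbol. After TDG, those with a symbol and the highest con-4c levels were MIOX, CLDN8, CD200R1 and PTGES. MIOX, an enzyme that oxidises myo-inositol, had 46.5, 42.9 and 52.1 CPM in con-4c and was at least 1596-fold lower in si-4c. CLDN8, a claudin of tight junctions, had 34.7 ± 2.23 CPM in con-4c and was at least 1173-fold lower. CD200R1, an inhibitory receptor of immune cells, had 25.4 ± 3.37 CPM and was at least 859-fold lower, and PTGES, a prostaglandin E synthase, had 19.3 ± 1.53 CPM and was at least 652-fold lower. In the other direction, 28 genes called higher had no count in con-4c, all but 1 of them in the lowest class. The most abundant of these with a symbol, the amine oxidase gene AOC2, had 1.08, 1.07 and 0 CPM in si-4c, so that 1 of its libraries was at 0 as well.

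**Figure D4:**
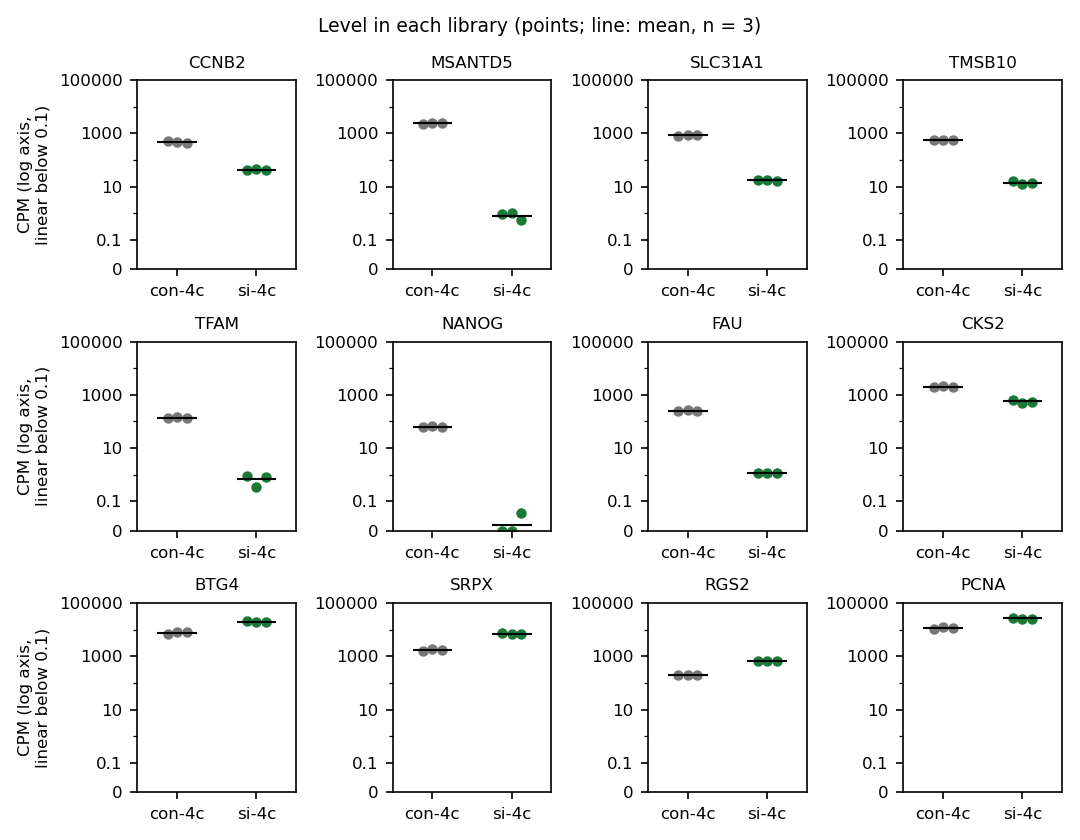
Each panel shows CPM in the 3 con-4c (grey) and 3 si-4c (green) libraries for a gene described in the text, on a log axis that is linear below 0.1, with lines at the group means. In the upper 8 panels every si-4c library lies below every con-4c library, down to 0 for NANOG, and in the lower 4 panels (BTG4, SRPX, RGS2 and PCNA) every si-4c library lies above. For several of these genes, the lack of overlap was a condition of their choice.

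The genes called lower were grouped by function with 38 gene lists, which cover 374 of the 1519 genes called lower that have a symbol and 91 of the 423 called higher. Counts for a list are read against the shares over all genes tested, 15.8% lower and 3.12% higher. List members all carry a symbol, and of the 12052 genes tested with a symbol, 12.6% were called lower and 3.51% higher. Shares between 12.6% and 15.8% lower are thus above the one and below the other. Members called higher rested on the scaling: with library totals their number changed by more than 1.5 times in 26 of 37 lists with members tested, going from 15 to 6 for solute carriers, from 6 to 3 for mitochondrial ribosomal proteins, and from 5 to 2 for heat shock proteins and 5 to 1 for DNA replication. With the same scaling, members called lower went from 6 to 11 for heat shock proteins, from 6 to 10 for proteasome subunits and for the nuclear pore, and from 5 to 10 for chromatin remodellers, and they moved by no more than 1.5 times in the other lists with at least 5. Taken first are DPPA2 and EIF1AX, the gene listed here for EIF1A, which the study names as markers of genome activation. ZSCAN4, a further marker of the study, was not analysed here. DPPA2, a chromatin-bound protein of pluripotent cells, had 159, 184 and 171 CPM in con-4c and 49.2, 35.0 and 35.1 CPM in si-4c (-2.11 log2 units, SE 0.12, edgeR adjusted p 3.93e-10). EIF1AX, a translation initiation factor, had 174 ± 7.19 CPM in con-4c and 40.1 ± 1.53 CPM in si-4c (-2.12, SE 0.09, edgeR adjusted p 1.33e-11). For both genes every si-4c library lay below every con-4c library. The study names both genes for these libraries, so they are no independent evidence of direction.

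Transcription factors of pluripotency and early lineages came next. Of 58 tested, 20 (34.5%) were called lower and 1 higher, with a median log2 fold change of -0.51 against -0.11 over all genes. NANOG, a homeodomain factor that maintains pluripotency, had 1827, 2084 and 1871 counts in the con-4c libraries and 0, 0 and 2 counts in the si-4c libraries (edgeR adjusted p 3.25e-13). The ratio of con-4c to si-4c was 3210, with a 95% counting interval of 889 to 26508. KLF17, a Krüppel-like factor of the early embryo, had 40.8, 39.1 and 39.9 CPM in con-4c and 0, 0 and 0.149 CPM in si-4c (edgeR adjusted p 5.98e-11). The single member called higher was ID3, a helix-loop-helix protein that blocks the DNA binding of its partners, with 226, 197 and 203 CPM in con-4c and 788, 812 and 758 CPM in si-4c (1.92, SE 0.14, edgeR adjusted p 9.51e-09). Of the 20 members called lower, 13 averaged below 10 CPM, beside 84.0% of all genes called lower and 65.9% of all genes tested.

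The transcription machinery was examined next. Among 28 subunits of the RNA polymerases, 9 (32.1%) were called lower. POLR2B, the second largest subunit of RNA polymerase II, fell from 68.4 ± 2.88 to 7.05 ± 1.04 CPM (-3.28 log2 units, SE 0.14, edgeR adjusted p 8.15e-12). Among 105 general transcription factors and Mediator subunits, 12 (11.4%) were called lower, and 3 higher. Those that fell included GTF2F1, a subunit of TFIIF, from 57.1 ± 6.06 to 3.30 ± 0.871 CPM, and MED31, a Mediator subunit, from 81.8 ± 1.31 to 6.02 ± 1.26 CPM. TAF9, a subunit of TFIID and SAGA, was at 191 ± 21.6 CPM in con-4c and 430 ± 30.2 CPM in si-4c (1.17, SE 0.12, edgeR adjusted p 6.47e-07), a call that is not made when libraries are scaled by their totals. Of 260 zinc finger genes of the ZNF, ZSCAN, ZKSCAN and ZFP series, 38 (14.6%) were called lower and 4 higher. ZNF622, which takes part in ribosome maturation, had 29.6, 37.3 and 38.1 CPM in con-4c and 0, 0 and 0.418 CPM in si-4c (edgeR adjusted p 5.07e-09).

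Splicing factors followed. Of 91 tested, 21 (23.1%) were called lower and 2 higher, and the median was -0.39. SNRNP48, a protein of the minor spliceosome, fell from 32.3 ± 1.44 CPM to 0.696 ± 0.401 CPM (-5.54 log2 units, SE 0.28, edgeR adjusted p 1.19e-10). Most of the splicing factors called lower were of middling abundance, 14 of them between 10 and 100 CPM and 5 above. MAGOH, a core protein of the exon junction complex, was at 426 ± 28.2 CPM in con-4c and 967 ± 91.5 CPM in si-4c (1.18, SE 0.10, edgeR adjusted p 5.41e-08), which falls under the fold threshold with library totals.

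Cytosolic ribosomal proteins had the highest share of members called lower among the lists of 10 or more genes. Of 66 tested, 41 (62.1%) were called lower and 1 higher, with a median log2 fold change of -1.67. For all 41 the libraries of the groups did not overlap, which also held for 2710 of all 2852 genes called lower. The log2 fold changes of the 41 ran from -7.74 (FAU) to -1.08. The calls depended on level within the list too: 31 of 44 members between 10 and 100 CPM were called lower, but 3 of 13 between 100 and 1000 CPM. RPL9, a protein of the large subunit, had 17.6, 17.9 and 24.5 CPM in con-4c and 0.120, 0.521 and 0 CPM in si-4c (-6.51, SE 0.65, edgeR adjusted p 6.10e-07). RPS24, a protein of the small subunit, went the other way, with 656, 624 and 637 CPM in con-4c and 1291, 1286 and 1369 CPM in si-4c (1.04, SE 0.10, edgeR adjusted p 2.96e-07), a change just over the threshold that is not called with library totals or among genes of at least 10 CPM alone. Summed over the list, con-4c libraries held 4724 to 4915 CPM and si-4c libraries 3658 to 3915 CPM. Ribosomal protein genes have many near-identical processed copies, and their counts are uncertain for that reason.

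Genes that build ribosomes and start translation were also examined. Of 103 ribosome biogenesis genes, 27 (26.2%) were called lower and 3 higher. None of the 26 above 100 CPM was called lower. Few genes at that level were, 3.41% of all genes at 100 to 1000 CPM and 2.59% of those above. FBL, the methyltransferase of nucleolar box C/D particles, fell from 37.4 ± 1.63 to 0.851 ± 0.453 CPM (-5.46 log2 units, SE 0.26, edgeR adjusted p 4.33e-11). EMG1, which modifies the RNA of the small subunit, fell from 109 ± 6.01 to 2.79 ± 0.268 CPM. UTP23, a factor of small-subunit processing, rose from 335 ± 7.64 to 1062 ± 105 CPM (1.66, SE 0.10, edgeR adjusted p 7.04e-10). Of 55 translation initiation and elongation factors, 11 were called lower and 2 higher. DENR, which aids reinitiation, fell from 45.6 ± 2.81 to 2.62 ± 0.486 CPM, and EIF3G, a subunit of the factor that prepares the small subunit, fell from 22.8 ± 1.99 to 2.38 ± 0.135 CPM. Of 38 aminoacyl-tRNA synthetases, 6 (15.8%) were called lower and 1 higher.

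Mitochondrial functions split. Of 33 genes for mitochondrial DNA maintenance and protein import, 9 (27.3%) were called lower, TFAM the furthest, and 1 higher. Of 86 nuclear genes of oxidative phosphorylation, 13 (15.1%) were called lower and 1 higher, and NDUFA2, a subunit of complex I, fell from 95.8 ± 2.22 to 4.72 ± 0.528 CPM (-4.34 log2 units, SE 0.15, edgeR adjusted p 1.10e-12). Mitochondrial ribosomal proteins had calls in both directions, 9 (13.4%) lower and 6 (8.96%) higher among 67 tested. MRPL17 fell from 31.6 ± 1.83 to 4.12 ± 0.830 CPM. MRPS31 rose from 74.2 ± 0.822 to 191 ± 3.88 CPM, and MRPS14 from 331 ± 15.9 to 848 ± 49.1 CPM (1.36, SE 0.07, edgeR adjusted p 2.58e-10). Of 45 genes of glycolysis and the citrate cycle, 8 (17.8%) were called lower and 1 higher. Genes of the mitochondrial genome were not analysed here.

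Genes for mRNA turnover include factors that clear maternal mRNA. Of 78 deadenylation and decay genes, 11 (14.1%) were called lower and 2 higher. EXOSC10, the nuclease of the nuclear exosome, fell from 96.2 ± 3.99 to 3.66 ± 0.534 CPM (-4.71 log2 units, SE 0.14, edgeR adjusted p 1.77e-13), and BTG3, a member of the antiproliferative BTG family, from 28.8 ± 2.86 to 0.583 ± 0.302 CPM. BTG4 (chr9:39253116-39281327), which brings the CCR4-NOT deadenylase to maternal mRNAs, had 7150, 7991 and 7904 CPM in con-4c and 20921, 19306 and 18786 CPM in si-4c. It was higher in every si-4c library (1.36, SE 0.11, edgeR adjusted p 3.55e-08). METTL14, a subunit of the m6A methyltransferase and the other member called higher, was at 90.5 ± 4.44 CPM in con-4c and 221 ± 17.2 CPM in si-4c (1.29, SE 0.12, edgeR adjusted p 3.65e-07).

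Transcripts stored by the oocyte had the lowest share of members called lower among the lists of 10 or more genes. Of 43 oocyte factors and subcortical maternal complex genes, 1 (2.33%) was called lower and 3 (6.98%) higher. Many members were abundant, 16 averaging 100 to 1000 CPM and 6 at least 1000 CPM. Of all genes in those classes, 3.41% and 2.59% were called lower and 5.75% and 14.7% higher. The part of abundance in the low share of the list was not tested. The median log2 fold change of the list was 0.28, or 0.02 with library totals, where that of all genes was -0.37. The list summed to 19777 to 20118 CPM in con-4c and 34446 to 36876 CPM in si-4c, with BTG4 its largest part. OOSP2, a secreted oocyte protein, had 368, 421 and 376 CPM in con-4c and 1311, 1262 and 1203 CPM in si-4c (1.70, SE 0.13, edgeR adjusted p 1.60e-08). OOEP, a core member of the subcortical maternal complex, rose from 371 ± 9.58 to 1027 ± 40.4 CPM (1.47, SE 0.08, edgeR adjusted p 4.63e-10). The member called lower was BRDT, a bromodomain protein of germ cells, at 394 ± 9.31 CPM in con-4c and 180 ± 8.06 CPM in si-4c (-1.13, SE 0.09, edgeR adjusted p 3.28e-08).

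Genes of the cell cycle were called in both directions. Of 64 mitotic cyclins, kinases and anaphase-promoting complex genes, 8 (12.5%) were called lower, CCNB2 and CKS2 among them, and 3 higher. Of 96 kinesins, tubulins and kinetochore genes, 3 (3.13%) were called lower and 4 higher. Of 56 DNA replication genes, 4 (7.14%) were called lower and 5 (8.93%) higher. PCNA (chr17:14137746-14142584), the sliding clamp of the replisome, had 10889, 12056 and 11612 CPM in con-4c and 28338, 25770 and 24742 CPM in si-4c (1.19, SE 0.11, edgeR adjusted p 2.18e-07). TYMS, which makes thymidylate, rose from 83.5 ± 3.52 to 245 ± 17.8 CPM, and GMNN, the inhibitor of origin licensing, was at 169 ± 7.32 CPM in con-4c and 376 ± 24.8 CPM in si-4c (1.15, SE 0.09, edgeR adjusted p 2.00e-08). With library totals PCNA and GMNN fall under the fold threshold. ORC1, the largest subunit of the origin recognition complex, had 79.7, 86.3 and 81.9 CPM in con-4c and 26.2, 25.7 and 23.2 CPM in si-4c (-1.72, SE 0.09, edgeR adjusted p 2.11e-10).

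Chromatin and DNA damage genes were counted side by side. Of 84 histone-modifying enzymes, 13 (15.5%) were called lower and 2 higher. NSD1, a methyltransferase of histone H3 lysine residues, had 316, 322 and 337 CPM in con-4c and 45.9, 41.0 and 46.7 CPM in si-4c (-2.87 log2 units, SE 0.09, edgeR adjusted p 4.31e-13). HAT1, an acetyltransferase of newly made histone H4, was at 70.7 ± 5.55 CPM in con-4c and 154 ± 4.71 CPM in si-4c (1.12, SE 0.13, edgeR adjusted p 2.43e-06), a call lost with library totals and among genes of at least 10 CPM alone. Of 54 chromatin remodellers and histone chaperones, 5 (9.26%) were called lower and 1 higher, and of 15 genes of DNA methylation and demethylation, 2 were called lower, TDG among them. Of 55 genes of the DNA damage response and p53 targets, 4 (7.27%) were called in each direction, and CHEK2, a checkpoint kinase, fell from 44.3 ± 4.17 to 7.49 ± 1.64 CPM (-2.56, SE 0.15, edgeR adjusted p 7.68e-10).

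Apoptosis genes moved in both directions. Of 33 tested, 9 (27.3%) were called lower and 3 (9.09%) higher, and the 9 that fell averaged at most 16.7 CPM in con-4c. MCL1, which protects cells from apoptosis, fell from 16.7 ± 2.04 to 1.15 ± 0.379 CPM (-3.85 log2 units, SE 0.31, edgeR adjusted p 5.09e-08). DIABLO, which promotes apoptosis by binding its inhibitors, fell from 16.1 ± 1.20 to 1.95 ± 0.130 CPM (-3.04, SE 0.24, edgeR adjusted p 3.22e-08).

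Genes that respond to double-stranded RNA or interferon were examined because an siRNA is itself double-stranded. Of 30 tested, 7 (23.3%) were called lower and 1 higher, and none of those called averaged 10 CPM. The list as a whole summed to 1052 to 1076 CPM in con-4c and 1091 to 1141 CPM in si-4c. Of 17 genes of the RNA interference machinery, 1 was called lower and 1 higher.

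The remaining lists were read in the same way. Of 70 genes of protein processing in the endoplasmic reticulum, 12 (17.1%) were called lower and 2 higher, and VCP, an ATPase that extracts proteins for degradation, fell from 38.9 ± 0.278 to 2.44 ± 0.207 CPM. Of 45 proteasome subunits, 6 were called lower and 3 higher, and of 137 ubiquitin conjugation and removal genes, 10 lower and 4 higher. Of 68 actin cytoskeleton genes, 6 were called lower, and TPM3, a tropomyosin, fell from 75.5 ± 3.09 to 0.366 ± 0.138 CPM (-7.68 log2 units, SE 0.27, edgeR adjusted p 8.23e-13). Of 59 genes of the nuclear pore and nuclear transport, 6 were called lower and 2 higher, and NUP37, a subunit of the pore's Y complex, rose from 141 ± 11.8 to 433 ± 33.2 CPM (1.62, SE 0.13, edgeR adjusted p 6.25e-08). Of 244 solute carriers, 24 (9.84%) were called lower, SLC31A1 among them, and 15 (6.15%) higher, and of 83 heat shock proteins and co-chaperones, 6 lower and 5 higher. Of 70 genes of the TGF-beta, FGF, WNT and Notch pathways, 7 were called lower and 4 higher, and of 36 lipid genes, 2 were called in each direction.

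**Figure D5:**
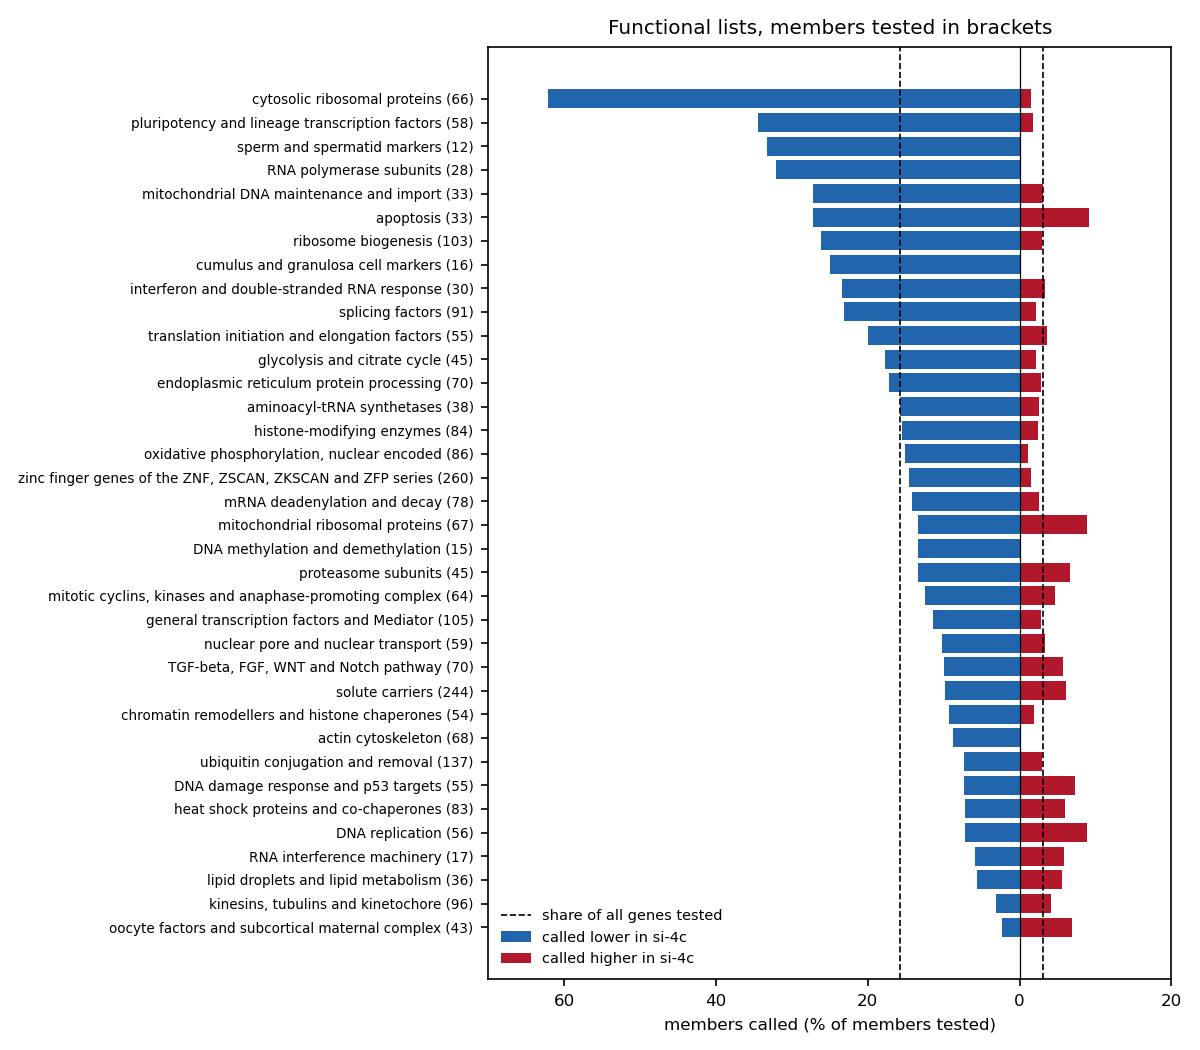
For each functional list with at least 10 members tested (number in brackets), the bar to the left gives the percentage of members called lower in si-4c and the bar to the right the percentage called higher, with dashed lines at the shares over all genes, 15.8% and 3.12%. Among genes with a symbol, as all members have, the shares were 12.6% and 3.51%. Cytosolic ribosomal proteins reach 62.1% lower, and oocyte factors stand last with 2.33% lower.

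Genes called higher with the smallest p in each abundance class had a range of functions. In the highest class, SRPX (chrX:34075577-34198462), a sushi-repeat protein, had 1592, 1805 and 1730 CPM in con-4c and 7712, 7022 and 6709 CPM in si-4c (2.06 log2 units, SE 0.11, edgeR adjusted p 1.45e-10). DYNC2LI1 (chr3:96656099-96703282), a light intermediate chain of the dynein that works in cilia, had 440, 486 and 473 CPM in con-4c and 2222, 2075 and 1997 CPM in si-4c (2.17, SE 0.12, edgeR adjusted p 2.58e-10). GRIP1, a scaffold protein with PDZ domains, rose from 1842 ± 28.3 to 4893 ± 352 CPM. All si-4c libraries lay above all con-4c libraries for each of them, since genes with overlap were not chosen. In the class from 100 to 1000 CPM, RGS2 (chr10:936836-940083), which turns off G protein signals, had 194, 195 and 193 CPM in con-4c and 688, 669 and 684 CPM in si-4c (1.81, SE 0.07, edgeR adjusted p 5.82e-12). Between 10 and 100 CPM, MOCS2, an enzyme of molybdenum cofactor synthesis, rose from 21.4 ± 1.11 to 84.5 ± 5.44 CPM, PPA1, an inorganic pyrophosphatase, from 18.3 ± 1.13 to 70.5 ± 7.73 CPM, and NFE2L2, the transcription factor of the oxidative stress response, from 39.4 ± 1.98 to 102 ± 6.82 CPM. Below 10 CPM, DERA, an aldolase of deoxyribose phosphate, rose from 1.91 ± 0.417 to 9.62 ± 2.15 CPM (2.33, SE 0.23, edgeR adjusted p 5.66e-07). The most abundant gene called higher has no symbol in the table. This gene, ENSSSCG00000000296, was chosen after its values were seen and had 27372 ± 1915 CPM in con-4c and 57315 ± 1683 CPM in si-4c (1.07, SE 0.11, edgeR adjusted p 7.84e-07).

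The libraries titled 2c, which share no library with this comparison, went the opposite way for many of the same genes. Of the 2852 genes called lower in si-4c, 1585 (55.6%) rose past the thresholds between con-2c and si-2c, where 10.7% of all genes tested were called higher, and 3 were called lower. Of the 562 genes called higher in si-4c, 171 (30.4%) were called lower in si-2c, where 1.80% of all genes were, and none was called higher. The difference between the responses was tested as an interaction, and it passed the thresholds for 32.4% of all genes, among them 2759 of the genes called lower and 522 of those called higher. These genes were chosen on the change from con-4c to si-4c, which is one term of the interaction, so nothing is read from their counts. TFAM went from 1.37 ± 0.0625 CPM with the title con-2c to 67.6 ± 9.60 CPM with si-2c, MSANTD5 10.6 ± 2.61 and 865 ± 88.7 CPM, and BTG4 18571 ± 2719 and 7897 ± 948 CPM. As shares of the library, the genes called lower in si-4c took 0.862% ± 0.0556 of the counts in con-2c and 3.25% ± 0.0265 in si-2c, beside 5.54% in con-4c and 0.794% in si-4c. The genes called higher took 19.1% ± 1.14 in con-2c and 11.0% ± 0.346 in si-2c, beside 9.75% in con-4c and 19.1% in si-4c. CCNB2 itself was low in both si groups. In both shares con-2c lay close to si-4c, and si-2c lay between con-4c and si-4c. If stages were taken from the tissue labels throughout, the same libraries would still be compared, but an exchange within one treatment alone would change that.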

How the data were processed

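Porcine embryo SMART-seq libraries were grouped by title (con-4c and si-4c, 3 each, in a fit with con-2c and si-2c, 12 libraries in all). The deposited values were raw counts per Ensembl gene for 29329 genes, 15463 with a symbol, not normalized by the authors. The submitters' processing notes name cutadapt 1.9, HISAT2 2.2.1, StringTie 2.1.6, DESeq2, edgeR and the build Sscrofa11.1. Which annotation release was used, whether strand was used and how multi-mapping reads were counted are not given in the sources used here. Positions are those of RefSeq genes on Sscrofa11.1 matched by symbol.

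Testing used edgeR 4.0.16 under R 4.3.3 (filterByExpr, TMM factors, quasi-likelihood fit with 4 group means, common dispersion 0.0745, Benjamini-Hochberg adjustment over 17995 genes). The adjusted p named in the text is from this edgeR fit. A standard error is the fitted log2 change over the root of its F statistic. CPM were computed here from the deposited counts with TMM-scaled totals and are given as mean ± SD, n = 3. A fold against a group with no count was bounded at 3 counts over the group. The counting interval of a ratio is an exact Poisson interval. Amplified reads carried no molecular identifiers, so intervals and bounds cover counting error only. The scripts were tested on simulated data.

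Named were CCNB2, BTG4, EIF1AX and DPPA2, called genes with the smallest p per abundance class and no overlap (up to 3 each way), the largest changes per list at 10 CPM or more (up to 2 each way), the 5 most abundant genes per group, and the 5 most abundant with no count in a group, all with a symbol. The comparison, the lists and this rule were chosen with earlier results of these data known. Alternatives were DESeq2 1.42.0, other scalings, filters and thresholds, a replicate block, other class definitions and leaving out each library. No column of the table lacked a sample. The values of 1 gene that the rule names are not reported here.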

Additional observations from a re-analysis of the deposited data

Results flagged for a closer look

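For the genes described above, the response to si-CCNB2 was compared between the titles as an interaction, the log2 fold change of si-4c against con-4c less that of si-2c against con-2c, in the edgeR fit. It passed an adjusted p of 0.05 for 59 of the 61 genes compared, negative for 32 and positive for 27, and for 45.5% of all genes tested. The genes were named mostly for their change from con-4c to si-4c, which is one term of the interaction, so passing was largely set by that choice and the count is a description. The other 8 of the 69 genes, with no count in a group, are left out.

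Most negative were MSANTD5 -17.83, KLF17 -16.33, TPM3 -13.27, TFAM -13.26, FAU -13.09, RPL9 -11.86, LGALS1 -11.14, SNRNP48 -10.66, BTG3 -10.64, TMSB10 -9.44 and FBL -9.29. They were followed by EMG1 -9.13, SLC31A1 -8.98, SNAI1 -8.95, EXOSC10 -7.96, NDUFA2 -7.77, GTF2F1 -7.74, VCP -7.14, MED31 -6.91, DENR -6.81, MCL1 -6.77 and POLR2B -5.55. Smaller negative values were those of NSD1 -5.13, EIF3G -5.08, MRPL17 -4.93, DIABLO -4.39, CHEK2 -3.67, EIF1AX -3.55, DPPA2 -3.36, CKS2 -2.88, ORC1 -2.19 and BRDT -1.78. Positive interactions were CCNB2 0.88, DNMT1 1.45, UBB 1.53, HAT1 2.00, METTL14 2.01, GMNN 2.06, MRPS14 2.09, GRIP1 2.16 and RPS24 2.24. Larger ones were TAF9 2.35, PCNA 2.46, NFE2L2 2.58, MAGOH 2.59, BTG4 2.59, UTP23 2.67, TYMS 2.74, OOSP2 2.81, MRPS31 2.86 and NUP37 2.87. The largest were OOEP 3.07, RGS2 3.23, MOCS2 3.55, PPA1 3.58, ID3 3.64, SRPX 3.95, DERA 4.19 and DYNC2LI1 4.54. CCNB2 fell under both titles, with log2 fold changes of -3.48 in si-4c and -4.36 in si-2c. For the other genes the sources of the difference were not tested.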

How the results depend on the processing

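CCNB2 stayed called lower under every alternative run, with a log2 fold change of -3.55 to -3.42 when each library was left out in turn. Leaving out a library gave 2505 to 2600 genes called lower and 524 to 618 higher, and in no class did a count move by more than 1.5 times. No alternative called a gene in the opposite direction to its call in the report. With DESeq2, 3208 genes were called lower and 535 higher, and 92 genes below 1 CPM were higher. With library totals, 231 genes were called higher, which was 83, 73, 28 and 7 in the 4 classes from 1 CPM up, and TAF9, RPS24, MAGOH, HAT1, PCNA and GMNN fell under the fold threshold with log2 fold changes of 0.78 to 0.93. FTL turned to -0.16 there. Among the 6090 genes averaging at least 10 CPM, fitted alone, 463 were lower and 188 higher (118 at 10 to 100 and 54 at 100 to 1000 CPM), FTL was at -0.025, and RPS24 and HAT1 lay just under the threshold. With no minimum fold, 3897 genes were lower and 2721 higher. Of these, 514 at 1 to 10 CPM were higher, 1003 were lower and 1455 higher at 10 to 100 CPM, 285 and 635 at 100 to 1000 CPM, and 19 and 61 above. With an adjusted p below 0.01 and a log2 fold change of at least 2, 1491 were lower (588, 650, 222 and 29 in the 4 classes up to 1000 CPM) and 21 higher (12, 6, 1, 0 and 2 in the 5 classes). Sorted by the mean of the libraries titled 2c, 32 genes at 100 to 1000 CPM and 0 above were lower, and by the mean of all 12 libraries 1 gene of the highest class was lower. For the gene lists, 236 of 1110 counts moved by more than 1.5 times, 160 of them with the other thresholds or among genes of at least 10 CPM alone, 32 with library totals and 44 elsewhere, and 168 of 481 medians moved by more than the spread between libraries, among them all 37 with library totals. Apart from thresholds and the number of genes fitted, the cause of these shifts was not tested. With the replicate number as a block, 2605 genes were called lower and 544 higher. Deviations of libraries sharing a number correlated at 0.0205, 0.0127 and 0.0187, so the numbers were not taken to pair the libraries, although each correlated best with its own number. Depth sets a limit below 1 CPM, where 1 count is 0.0289 to 0.0331 CPM.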

Other observations

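Genes without a symbol in the table made up a large part of the genes that fell. Of 5943 such genes tested, 22.4% were called lower and 2.34% higher, against 12.6% and 3.51% of the 12052 genes with a symbol. Within the class from 10 to 100 CPM, 74.7% of the genes called lower and 86.2% of those called higher carried a symbol, against 86.7% of the class. Among the most abundant was ENSSSCG00000053554, picked after its values were seen, with 1843 ± 77.9 CPM in con-4c and 7.89 ± 1.84 CPM in si-4c (n = 3).

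The genes called lower had a shorter median span on the chromosome from 1 to 1000 CPM, but not below 1 CPM. The median span in RefSeq, available for 92.0% of the genes called lower, 93.6% of those called higher and 93.1% of all tested genes with a symbol, was 19.1 kb, 26.0 kb and 33.3 kb over all levels. In the class from 10 to 100 CPM the medians were 14.6 kb for 279 genes called lower, 29.4 kb for 156 called higher and 43.4 kb for all 3672. Below 1 CPM they were 21.8 kb for 435 genes called lower and 20.2 kb for all 2607, so the order turned there. Chromosomes were known only for the 11218 genes with a symbol matched in RefSeq. Leaving out Y with 1 gene, the share called lower ran from 7.92% on chromosome 18 to 15.2% on X. The share called higher ran from 2.21% on chromosome 5 to 6.55% on chromosome 8. Of all genes with a symbol, 12.6% were called lower and 3.51% higher. These are descriptions with no test.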
